A study of Mus musculus with 12 samples.

Results

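Immunoglobulin variable segments, written here as V segments, are the pieces of antibody genes that encode the antigen-binding end of the heavy and light chains. A developing B cell joins 1 V segment to shorter downstream segments in its DNA, and the plasma cells that descend from it transcribe the chosen segment at a very high rate. RNA from many different V segments in a tissue therefore comes from B-lineage cells of many clones. The number of clones cannot be read from RNA of a few segments. Mouse antibodies have heavy chain segments (Ighv) paired mostly with kappa light chain segments (Igkv), and the number after the letters names a family of segments related in sequence.

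The V segments were defined by the platform annotation, as probe sets with exactly 1 listed symbol of the Ighv, Igkv or Iglv series. They numbered 199 of the 30142 genes analysed, with 113 heavy, 86 kappa and 0 lambda segments. Where a symbol had several probe sets, the one of highest mean was to be kept, but every V segment had 1 probe set, so no measured value chose a member. RefSeq annotates 110 of the heavy and 79 of the kappa segments as V segments and the other 3 and 7 as V segment pseudogenes. A further 24 probe sets list a V segment beside other symbols and were left out. Segments of one family share much of their sequence, so a probe set may also take up RNA of a related segment. The level of a single segment is uncertain for that reason. Ighv1-62-2 and Ighv1-71 had equal differences and standard errors in all comparisons. They are counted apart but may not be separate measurements.

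Expression was measured in pancreas tumours of 12 mice, 1 array each. All were of the PKT genotype, in which pancreatic ductal adenocarcinoma arises from engineered mutations, and belonged to 2 lines, FAP-TK and aSMA-TK. TK is thymidine kinase, which turns ganciclovir into a poison of the cell that carries it, FAP is fibroblast activation protein (Fap), and aSMA is alpha smooth muscle actin (Acta2). The groups of 3 were the FAP-TK control tumours (no depletion), the FAP depleted tumours, the aSMA-TK control tumours (no depletion) and the aSMA depleted tumours. The labels give ganciclovir at 50 ug per kg on all 12 arrays, so whether the controls received it is not clear, and they give no age, sex, treatment length or promoter of the transgene.

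The targeted genes were checked first. Fap was 6.56, 7.31 and 6.53 in the FAP-TK controls and 5.52, 5.34 and 6.21 in the FAP depleted tumours, and these groups did not overlap. Acta2 was 12.26, 10.85 and 11.12 in the aSMA-TK controls against 10.13, 13.86 and 15.28 in the other arm, so 2 of its 3 tumours went against their label. They are called the tumours labelled aSMA depleted here. Values are log2 expression values after quantile normalization between arrays, and differences are in the same log2 units. The epithelial keratin Krt19 stood between 15.87 and 18.78 on the 12 arrays. The median of the negative-control probe sets was 5.46 to 6.49 on the arrays of the FAP line and 4.46 to 4.88 on those of the aSMA line, so line and array background cannot be told apart. Positive and negative control probe sets lay closest on FAP-TK control 1 and 3 and FAP depleted 2, with medians 2.69 to 2.99 apart, against 4.32 to 4.89 on the other arrays.

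Most V segments were dim. As deposited, 178 of the 199 lay above the 95th percentile of the negative controls on no array, and 47 lay above the median of those controls on no array. The mean level of a segment over the 12 arrays ran from 3.08 to 13.81 among heavy segments, with a median of 4.37. Among kappa segments it ran from 2.97 to 6.43, with a median of 4.19. The number of segments above the negative-control median was highest in the tumours labelled aSMA depleted 1 and 2. It was 89 heavy and 51 kappa segments in the first and 75 and 42 in the second. In aSMA depleted 3 it was 39 and 16, within or near the 25 to 45 heavy and 7 to 21 kappa segments of the aSMA-TK controls.

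The mean over all heavy segments was 4.18, 4.20 and 4.22 in the FAP-TK controls and 4.71, 4.25 and 4.22 in the FAP depleted tumours. It was 4.80, 4.67 and 4.51 in the aSMA-TK controls, and the arm labelled aSMA depleted had 6.84, 5.72 and 4.56. The mean over all kappa segments was 3.89, 3.98 and 3.93 in the FAP-TK controls and 4.24, 3.86 and 3.88 in the FAP depleted tumours. It was 4.31, 4.07 and 4.05 in the aSMA-TK controls, and the arm labelled aSMA depleted had 5.97, 5.15 and 4.12. Both chains thus had the same high arrays, aSMA depleted 1 and then 2, with aSMA depleted 3 inside the range of its controls.

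**Figure D1:**
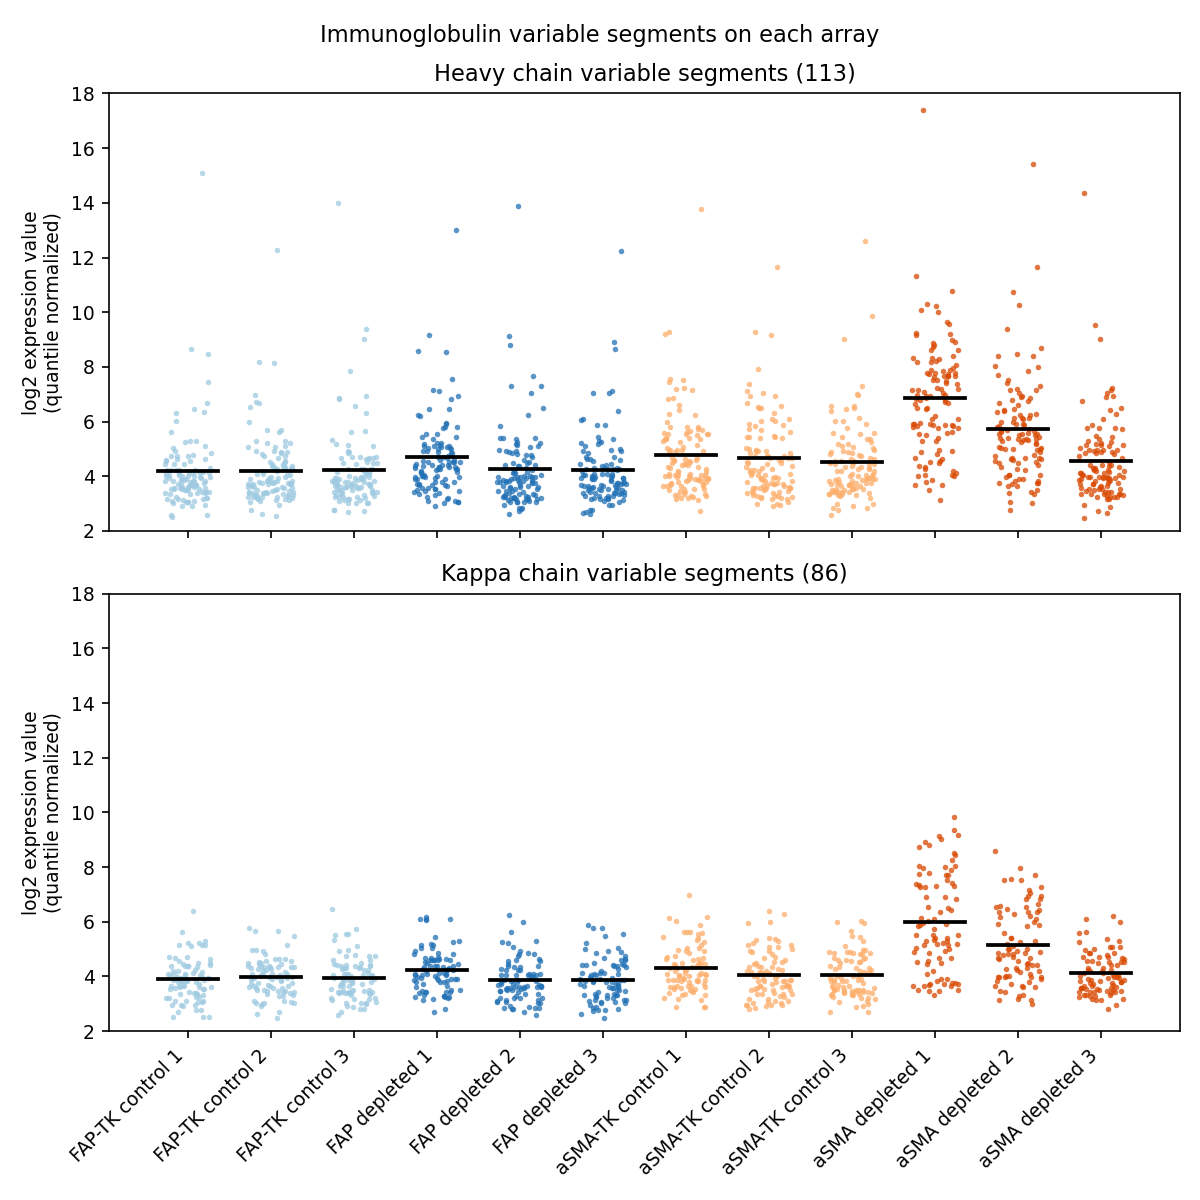
Level of each heavy (upper panel, 113) and kappa (lower panel, 86) V segment on each of the 12 arrays, as a log2 expression value after quantile normalization. Each point is 1 segment and each black line the mean of the chain on that array. The lines stand at 6.84 and 5.72 (heavy) in aSMA depleted 1 and 2 and between 4.18 and 4.80 on the other 10 arrays.

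As group means ± SD (n = 3), the heavy segments stood at 4.20 ± 0.02 in the FAP-TK controls, 4.39 ± 0.27 in the FAP depleted tumours, 4.66 ± 0.14 in the aSMA-TK controls, with 5.71 ± 1.14 for the arm labelled aSMA depleted. The kappa segments followed the same order, at 3.93 ± 0.04, 3.99 ± 0.21, 4.14 ± 0.15 and 5.08 ± 0.93. Neighbours in that order overlapped for both chains, apart from the heavy means of the FAP line, which met at 4.22. The spread within the tumours labelled aSMA depleted was the widest of the 4 groups.

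The 3 segments of highest mean were all heavy and were bright in all groups. Ighv1-2, annotated as a pseudogene, was 15.09, 12.28 and 14.01 in the FAP-TK controls and 12.99, 13.90 and 12.23 in the FAP depleted tumours. It was 13.76, 11.65 and 12.59 in the aSMA-TK controls, and the arm labelled aSMA depleted had 17.41, 15.41 and 14.38. It was the only V segment above the negative-control 95th percentile on 12 of 12 arrays, also where nearly all other V segments were dim. Ighv2-5 was 9.22, 9.29 and 9.88 in the aSMA-TK controls against 10.00, 10.73 and 9.54 in the labelled arm. Ighv2-3 was 9.29, 9.16 and 9.03 against 8.89, 9.38 and 9.03, so this bright segment overlapped its controls. The brightest kappa segments by mean were Igkv15-103, Igkv19-93 and Igkv16-104, each below 7 on all arrays except aSMA depleted 1 or 2. Igkv15-103 reached 8.60 in aSMA depleted 2 and Igkv19-93 reached 9.82 in aSMA depleted 1.

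The segments with the widest spread over the 12 arrays owed it to the same tumours. Ighv1-53 was 3.91 to 5.65 in the aSMA-TK controls, while the arm labelled aSMA depleted had 10.31, 7.84 and 4.19. Ighv1-69 was 4.89 to 5.54 in those controls and 9.63, 8.38 and 4.98 in that arm, and Ighv1-55 was 5.45 to 5.81 and 9.20, 8.39 and 5.49. Among kappa segments, Igkv4-54 was 4.23 to 4.85 in the controls and 9.18, 7.98 and 5.01 in the labelled arm. Igkv4-59 and Igkv4-62 had 9.03 and 8.81 in aSMA depleted 1, 7.55 and 7.58 in aSMA depleted 2, and 4.51 and 4.01 in aSMA depleted 3. In each of these 6 segments the first 2 tumours stood above every other array, and the third lay at most 0.54 above the mean of its controls.

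The comparison of tumours labelled aSMA depleted with aSMA-TK controls asks how the V segments differ after depletion of aSMA-positive cells. Of the 113 heavy segments 110 had a higher mean in the labelled arm, with a median difference of 0.93, and of the 86 kappa segments 80 had one, with a median of 0.61. The median over all 30142 genes was 0.01, and 53.2% of them had a higher mean. No V segment was called by limma at a Benjamini-Hochberg adjusted p under 0.05 (0 heavy and 0 kappa, smallest adjusted p 0.944), and none by the unmoderated two-sample test, against 0% of all genes. At an unadjusted p under 0.05, limma had 33 heavy and 27 kappa segments, every one higher, or 29.2% and 31.4% of the chain, against 4.81% of all genes. The labelled and control values did not overlap, with the labelled higher, for 17 heavy and 10 kappa segments, or 15.0% and 11.6%, against 7.43% of all genes. In bulk tumour RNA, more cells of the B lineage and more RNA per such cell cannot be told apart.

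Single tumours show how the V segments were spread within the arm. In aSMA depleted 1, 103 of 113 heavy and 66 of 86 kappa segments lay above all 3 controls, against 34% of all genes, and in aSMA depleted 2, 94 and 60 did, against 27.6%. In aSMA depleted 3 the counts were 20 and 16, or 17.7% and 18.6%, against 26.3% of all genes. The median difference from the control mean was 2.04 (heavy) and 1.24 (kappa) in the first tumour, 0.95 and 0.53 in the second, and -0.13 and 0.01 in the third. More than 1 log2 unit over the control mean were 79 heavy and 48 kappa segments in the first, against 4.99% of all genes. In the second it was 56 and 31, against 1.82%, and in the third 1 and 0, against 2.23%. The first tumour had the highest value of all 12 arrays for 88 heavy and 57 kappa segments.

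Without aSMA depleted 3, limma called 4 heavy and 8 kappa segments at a Benjamini-Hochberg adjusted p under 0.05, all higher, among 16 genes called in all, which is 0.0531% of those tested. They were Ighv1-47, Ighv1-55, Ighv1-20 and Ighv1-79 in the heavy locus and Igkv4-53, Igkv4-69, Igkv14-111, Igkv1-133, Igkv4-86, Igkv1-135, Igkv4-60 and Igkv4-57-1 in the kappa locus. Ighv1-47 then differed by 1.55 ± 0.13 (SE) and Igkv4-53 by 2.59 ± 0.22, each with an adjusted p of 0.0123. The median differences in that fit were 1.55 (heavy) and 0.91 (kappa), and without aSMA depleted 1 they were 0.46 and 0.33. The tumour was left out after its low values had been seen, so these calls describe 2 tumours and say nothing of the arm as a whole.

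With all tumours kept, 3 V segments without overlap had the smallest unadjusted p in this comparison. Ighv1-19-1 was 3.32, 2.97 and 2.85 in the controls and 4.01, 3.71 and 3.52 in the labelled arm, a difference of 0.70 ± 0.15 (SE). Ighv9-4 was 3.80, 3.63 and 3.76 against 4.90, 4.47 and 4.06, a difference of 0.75 ± 0.18. Ighv1-79 was 4.67, 4.91 and 4.62 against 6.95, 6.14 and 5.16, a difference of 1.35 ± 0.35. The limma adjusted p was 0.944 for each. The exact two-sided permutation p was 0.1, the smallest that 3 against 3 arrays can give. Choosing segments without overlap fixed that value in advance, so it adds no evidence. All 3 belong to the heavy chain, and as deposited Ighv1-19-1 and Ighv9-4 lay above the negative-control median on 0 arrays and Ighv1-79 on 4.

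**Figure D2:**
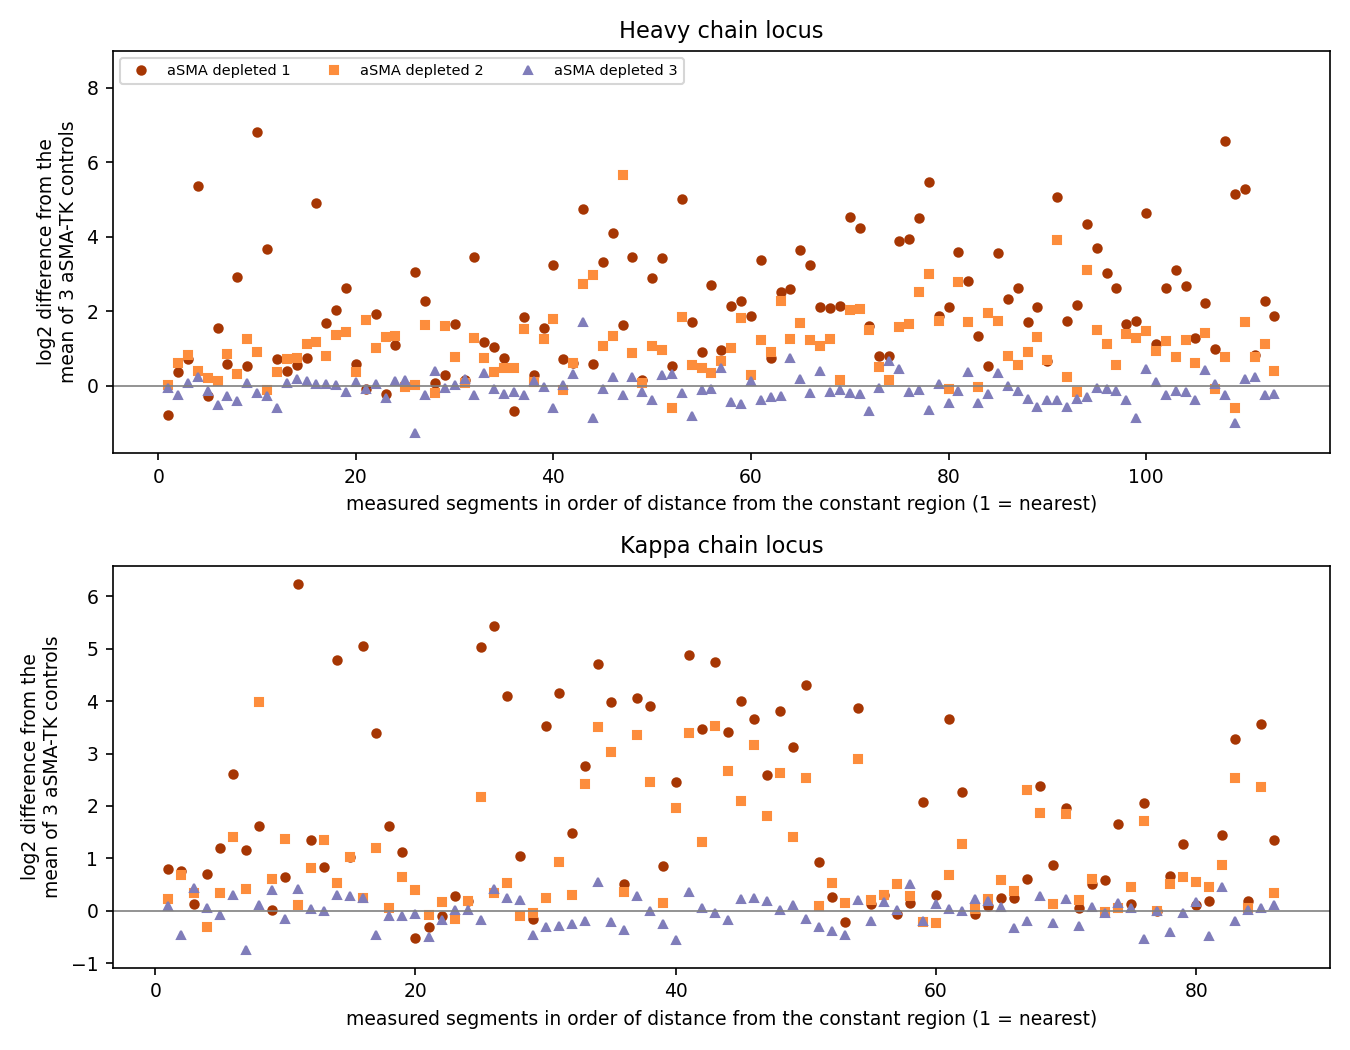
Difference of each V segment from the mean of the 3 aSMA-TK controls (log2 units, vertical) in each tumour labelled aSMA depleted, for the heavy (upper) and kappa (lower) locus. Segments are placed by their order from the constant region, nearest first, without distances. In the middle of the kappa locus the first tumour's median is 3.27 and the second's 1.61, while the third's points lie around 0 along both loci.

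The families of V segments differed in how far they stood above the controls. The largest heavy family, Ighv1 with 61 measured segments, had a median difference of 2.62 in aSMA depleted 1, 1.08 in aSMA depleted 2 and -0.17 in aSMA depleted 3. Its mean level was 4.68, 4.43 and 4.27 in the controls and 7.24, 5.62 and 4.37 in the labelled arm. Ighv5, with 9 segments, had a median difference of 2.93 in the first tumour and 0.40 in the second, so its high values came mainly from 1 animal. Ighv2, with 8 segments and the brightest family in the controls at a median level of 7.07, had medians of 0.55 and 0.78.

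Among kappa families, Igkv4 with 25 segments stood high in both tumours, with median differences of 3.47 and 2.10. Its mean level was 4.31, 4.03 and 3.83 in the controls and 7.03, 5.89 and 4.05 in the labelled arm. Igkv5 (5 segments) and Igkv6 (6 segments) had medians of 4.09 and 3.70 in the first tumour but 0.33 and 0.34 in the second. Igkv12, with 5 segments, had 0.09 and 0.19, and thus lay near its controls in both. The 7 kappa pseudogenes had medians of 0.18 and 0.06, against 1.45 and 0.60 for the 79 other kappa segments. The 3 heavy pseudogenes had 2.61 and 1.27, against 1.98 and 0.94 for the 110 other heavy segments. The differences between families and between these classes were not tested.

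Along the chromosome, the segments of a locus are arranged in a row on the far side of the joining segments from the constant region. Divided by order in the RefSeq annotation of GRCm38.p6, the 30 segments in the middle of the kappa locus had median differences of 3.27 and 1.61 in aSMA depleted 1 and 2. The 28 nearest the constant region had 1.08 and 0.41, and the 28 farthest had 0.64 and 0.48. In the heavy locus the 37 nearest segments had 0.75 and 0.74, the 39 in the middle 2.14 and 1.08, and the 37 farthest 2.34 and 1.13. Order and family go together, since 23 of the 25 Igkv4 segments lie in the middle of the kappa locus and 0 of the 61 Ighv1 segments among those nearest the constant region. Position and family therefore cannot be told apart.

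The tumours labelled aSMA depleted 1 and 2 differed in the level of single segments. Of the 199 segments, 153 were higher in the first and 46 in the second, and the gap exceeded 1 log2 unit for 84 and 9 of them. The gaps ran from 4.02 in favour of the second tumour to 6.12 in favour of the first. The segments at both ends were picked after their values were seen. Igkv6-20 was 9.12 in the first tumour and 3.00 in the second, where the controls had 2.70 to 3.08. Ighv5-12 was 11.33 and 5.42, Ighv1-81 was 10.77 and 4.97, and Igkv5-43 was 8.75 and 3.66.

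The opposite held for a smaller number of segments. Ighv10-3 was 7.65 in the first tumour and 11.67 in the second, against 5.77 to 6.43 in the controls. Its family neighbour Ighv10-1 was 7.87 and 10.27, and Igkv8-16 was 5.16 and 7.53. Each tumour is 1 array, so these gaps have no replicate of their own and no test.

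**Figure D3:**
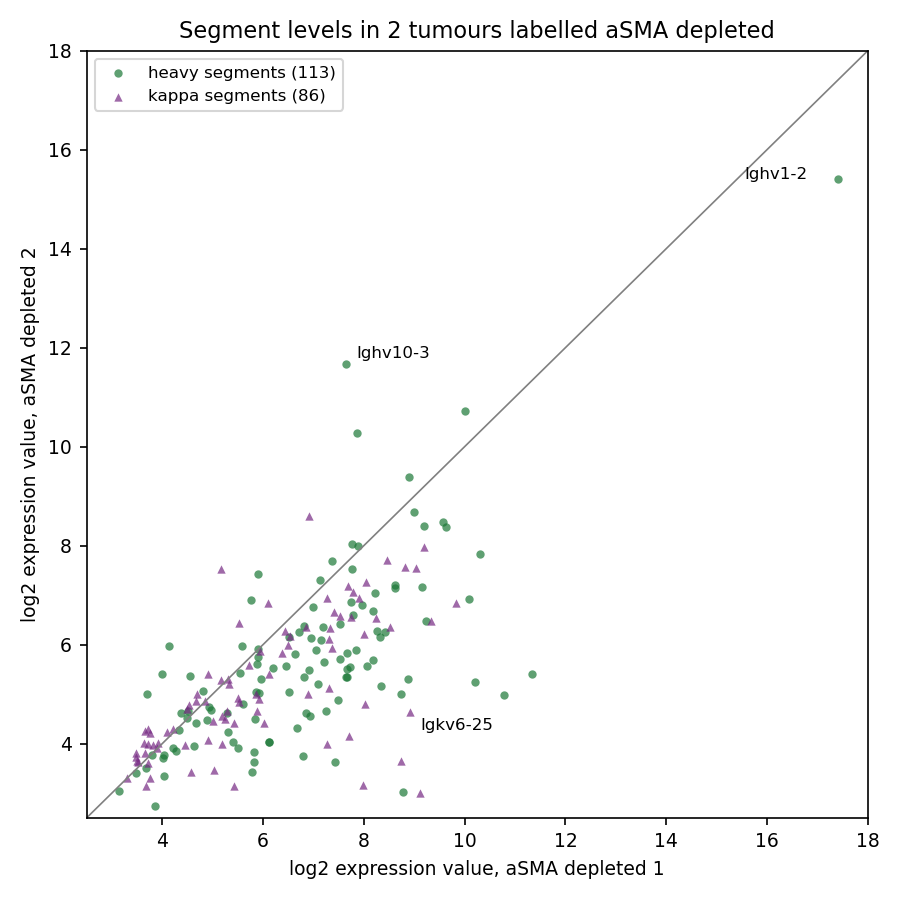
Level of each V segment in aSMA depleted 1 (horizontal) against aSMA depleted 2 (vertical), as log2 expression values; circles are 113 heavy and triangles 86 kappa segments, and the line marks equal levels. Of the 199 segments 153 lie below the line and 46 above it, with Ighv10-3 (7.65 and 11.67) far above and Igkv6-25 (8.91 and 4.64) below.

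The comparison of FAP depleted with FAP-TK control tumours asks the same of FAP-positive cells. A higher mean was seen for 88 of 113 heavy segments, with a median difference of 0.15. For kappa segments it was 50 of 86, with a median of 0.05. Over all genes the median was 0.04 and 59.9% were higher, so the kappa share of 58.1% was near that of all genes. No V segment was called by limma at a Benjamini-Hochberg adjusted p under 0.05 or by the unmoderated two-sample test, against 0% of all genes, and the unadjusted p was under 0.05 for 0 heavy and 1 kappa segments, against 3.71% of all genes. FAP depleted values lay wholly above the controls for 12 heavy and 3 kappa segments, or 10.6% and 3.49%, against 5.6% of all genes. They lay wholly below for 0 heavy and 3 kappa segments, against 2.5%. Without FAP depleted 1 the medians were -0.01 and -0.08, with 55 heavy and 34 kappa segments higher, so the direction of both medians rested on that tumour.

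FAP depleted 1 had 71 heavy and 40 kappa segments above all 3 controls, against 28.2% of all genes. FAP depleted 2 had 36 and 16, against 20.1%, and FAP depleted 3 had 30 and 21, against 34.4%. In FAP depleted 1, 2.74% of all genes exceeded the control mean by more than 1 log2 unit, and 155 of 30142 by more than 2. Among V segments, 16 heavy and 10 kappa segments exceeded it by more than 1, and 7 and 2 by more than 2. The highest, picked after its values were seen, was Ighv5-17, at 8.58 in this tumour against 3.51, 3.40 and 3.86 in the controls and 3.96 and 3.98 in the other FAP depleted tumours. Ighv3-6 was 6.93 against 3.64 to 3.75 in the controls, and Igkv4-54 was 6.18 against 3.24 to 3.97. In the values as deposited, these 3 segments lay below the negative-control 95th percentile of this array, 9.52, which 1 heavy segment, Ighv1-2, and 0 kappa segments passed.

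The segments of smallest unadjusted p without overlap in the FAP line differed by little. Ighv2-2 was 6.34, 6.67 and 6.87 in the controls and 7.17, 7.31 and 7.05 after depletion, a difference of 0.55 ± 0.26 (SE). Ighv2-4 differed by 0.54 ± 0.26 and Ighv6-3 by 0.83 ± 0.48. On the lower side, the pseudogene Igkv17-134 was 3.39, 3.56 and 3.33 against 3.25, 3.07 and 3.27, a difference of -0.23 ± 0.10. Igkv8-21 differed by -0.27 ± 0.28 and Igkv5-48 by -0.38 ± 0.80, and the limma adjusted p of all 6 was 1.

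The difference between both depletion effects was tested as an interaction. It was positive, with the aSMA-line effect the higher, for 105 of 113 heavy and 74 of 86 kappa segments, with medians of 0.75 and 0.55. The median over all genes was -0.03, and 46.4% of them were positive. No V segment was called by limma at a Benjamini-Hochberg adjusted p under 0.05 (smallest 0.829) or with trended and robust variances, against 0% of all genes. The unadjusted p was under 0.05 for 5 heavy and 7 kappa segments, or 4.42% and 8.14%, against 5.96% of all genes. All 12 of these differences were positive, as were 2.09% of all genes at that p.

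The control tumours of both lines were compared next. The aSMA-TK controls had a higher mean than the FAP-TK controls for 96 of 113 heavy and 58 of 86 kappa segments. The medians were 0.38 and 0.18, against 0.07 over all genes, of which 58.2% were higher. By limma with Benjamini-Hochberg adjustment 3 heavy segments were called, all higher in the aSMA-TK controls, and 5 kappa segments, 3 higher and 2 lower. That is 2.65% and 5.81% of the chains, against 7.8% of all genes. At an unadjusted p under 0.05 there were 19 heavy and 21 kappa segments, or 16.8% and 24.4%, against 28.2% of all genes. Values lay wholly above those of the FAP-TK controls for 46 heavy and 26 kappa segments, or 40.7% and 30.2%, against 21.3% of all genes, and wholly below for 1 and 8, against 13.8%. As deposited, without quantile normalization, the median of all genes shifted to -0.39, the segment medians were -0.07 and -0.20, and the calls were 1 heavy and 2 kappa segments higher, against 1.41% of all genes, and 5 and 12 lower, against 39.9% of all genes. The direction between lines thus turns with the scaling, although relative to all genes the segments stayed higher.

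Ighv6-3 was 4.58, 4.81 and 5.11 in the FAP-TK controls and 7.51, 6.93 and 6.98 in the aSMA-TK controls, a rise of 2.31 ± 0.48 (SE) with a limma adjusted p of 0.0257. Ighv6-7 was higher by 1.29 ± 0.29 (adjusted p 0.0302), Igkv3-4 by 1.18 ± 0.23 (0.0202) and Igkv1-35 by 0.84 ± 0.15 (0.0169). Ighv2-6-8 was higher by 0.83 ± 0.17 (0.0261) but by -0.07 as deposited. Igkv5-37 was 4.70, 4.51 and 4.24 against 3.71, 3.12 and 3.58, a difference of -1.02 ± 0.19 (adjusted p 0.0176 by limma), and Igkv20-101-2 differed by -0.99 ± 0.23 (0.0342). Igkv14-100, Igkv2-112 and Igkv8-18 were lower by values that did not pass, at -0.76, -0.65 and -0.45. In the FAP-TK controls the called segments ran from 3.39 to 6.00, against negative-control medians of 5.62 to 6.49 as deposited.

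The depleted tumours of both lines were further apart. By limma with Benjamini-Hochberg adjustment 15 heavy segments were called, all higher in the tumours labelled aSMA depleted, and 11 kappa segments, 10 higher and 1 lower. That is 13.3% and 12.8% of the chains, against 5.18% of all genes, and the medians were 1.22 (heavy) and 0.80 (kappa). Values lay wholly above those of the FAP depleted tumours for 37 heavy and 26 kappa segments, against 18.2% of all genes, and wholly below for 0 and 4, against 14.8%. Ighv1-55 was 4.01, 3.05 and 3.11 in the FAP depleted tumours and 9.20, 8.39 and 5.49 in the labelled arm, a difference of 4.30 ± 0.77 (SE, adjusted p 0.0187). Ighv1-69 differed by 4.06 ± 0.96 (adjusted p 0.043 by limma), a call that 16 of 22 alternatives did not keep. Igkv5-37 was lower by a difference of -1.02 ± 0.19 (0.0213), as between the controls, while Igkv14-100 and Igkv20-101-2 did not pass, at -0.68 and -0.67. With only these groups in the fit, 0 V segments were called, against 1 gene in all. As deposited the calls were 13 heavy and 10 kappa segments higher, against 1.1% of all genes, and 3 and 8 lower, against 46.3%.

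V segments are transcribed as 1 RNA with a constant region, so the measured constant region genes bear on the same cells. Ighm, the constant region of IgM, was 5.35, 7.05 and 5.55 in the aSMA-TK controls, while the arm labelled aSMA depleted had 10.45, 10.03 and 5.59. In the FAP line Ighm was 4.02, 4.54 and 4.18 in the controls and 8.53, 4.03 and 3.97 after depletion. The arrays with high Ighm, aSMA depleted 1 and 2 and FAP depleted 1, were thus those with the most V segments above their controls in each line. Ighg2b, the constant region of IgG2b, was 7.95 in aSMA depleted 1 and 3.58 to 4.27 on the other 11 arrays. Ighg1 was 5.10 in that tumour and at most 4.14 elsewhere, and Ighe, of IgE, ran from 3.73 to 4.20. As deposited, Ighg1 and Ighe lay above the negative-control median on 0 arrays and Ighg2b on 1.

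Jchain encodes the small protein that joins IgM or IgA units into multimers and marks plasma cells. It was 3.99, 4.21 and 4.09 in the FAP-TK controls and 5.21, 3.97 and 3.93 in the FAP depleted tumours. It was 4.73, 4.54 and 4.42 in the aSMA-TK controls, while the arm labelled aSMA depleted had 8.50, 5.88 and 4.64. Its highest arrays, aSMA depleted 1 and 2 in one line and FAP depleted 1 in the other, were those of the chain means. As deposited, however, Jchain lay above the negative-control median on only 2 arrays. The difference in the aSMA line was 1.78 ± 0.78 (SE) with a limma adjusted p of 0.944.

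**Figure D4:**
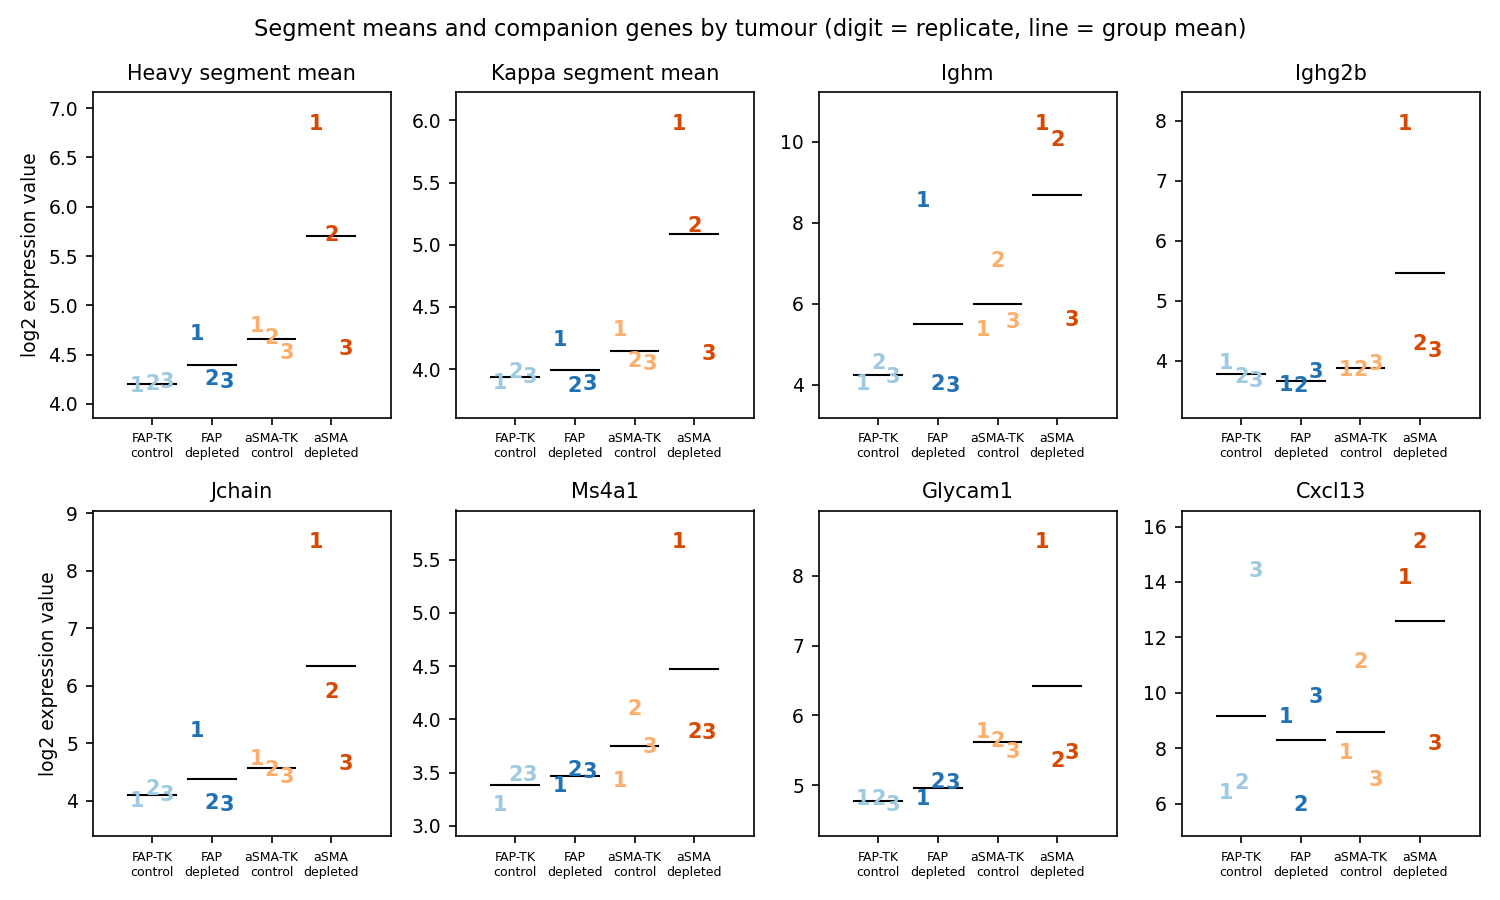
Mean of the heavy and of the kappa V segments and levels of 6 companion genes (log2 expression value, vertical; each panel has its own scale and does not start at 0) in the 4 groups; each digit is 1 tumour, numbered by replicate, and each line the group mean. Ighm stands at 10.45 and 10.03 in aSMA depleted 1 and 2 and at 8.53 in FAP depleted 1, while Cxcl13 is high in aSMA depleted 1 and 2 (14.13 and 15.44) and also in FAP-TK control 3 (14.39).

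The other genes of the plasma cell list were mixed. Of its 14 measured genes, Jchain included, 8 lay above all 3 controls in aSMA depleted 1, against 34% of all genes. In aSMA depleted 2 it was 5, against 27.6%, and in aSMA depleted 3 it was 3, against 26.3%. In the first tumour 6 had the highest value of all 12 arrays. Of the 14, 0 were called by limma within either line, and their median difference was 0.14 in the aSMA line and -0.03 in the FAP line. Mzb1, a chaperone of antibody assembly, was between 3.88 and 4.51 on all arrays, and Tnfrsf17, the receptor BCMA of plasma cells, between 3.27 and 4.07. As deposited, both lay above the negative-control median on 0 arrays, so an unchanged level cannot be read from them. Xbp1, the transcription factor of the secretory program, ran from 11.19 to 12.80 and Sdc1, or CD138, from 7.52 to 9.76, both also expressed by epithelial cells. Pou2af1, a B cell coactivator, was 6.79 in aSMA depleted 1 and 5.68 to 5.93 in the rest of the aSMA line. Slamf7, a surface receptor of plasma cells and other lymphocytes, was 5.53, 5.29 and 4.29 in the labelled arm against 4.87, 4.74 and 5.03 in its controls. Irf4, a transcription factor of plasma cells, was 4.30 in aSMA depleted 1 and 3.41 to 3.69 on the other arrays. It too lay above the negative-control median on 0 arrays. Between the controls of both lines limma called 2 of the 14 genes, against 7.8% of all genes. They were Creld2 (2.19 ± 0.42, adjusted p 0.0191) and Derl3 (0.70 ± 0.16, 0.0298), both higher in the aSMA line. Both encode proteins of the endoplasmic reticulum. In aSMA depleted 1, some genes of the list lay below all 3 controls. They were Sdc1 (8.18 against 9.35 to 9.76), Creld2 (8.56 against 9.72 to 9.96), Fkbp11 (5.26 against 5.73 to 6.25) and Tnfrsf13b (5.92 against 5.99 to 6.15).

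B cell genes outside the antibody loci were highest in 1 tumour. Of 15 measured, 14 lay above all 3 controls in aSMA depleted 1, against 34% of all genes, and 12 had the highest value of all 12 arrays there. In aSMA depleted 2 it was 5, against 27.6%, and in aSMA depleted 3 it was 4, against 26.3%, both near the share of all genes. In aSMA depleted 1 Ms4a1, which encodes CD20, was 5.67 against 3.20 to 4.10 elsewhere, Bank1, a B cell adaptor, was 6.15 against 3.74 to 4.49, and Fcmr, the IgM receptor, 5.02 against 3.50 to 3.91. As deposited, Ms4a1 and Bank1 each lay above the negative-control median on 1 array and Fcmr on 0. In aSMA depleted 2, Ms4a1 was 3.88, Bank1 4.33 and Fcmr 3.91, close to the controls, although Ighm and the Igkv4 segments were high. Between the controls of both lines limma called 2 of the 15, against 7.8% of all genes. Between the depleted tumours it called 3, against 5.18%, and all these calls were higher in the aSMA line. Within either line it called 0 of the 15, with medians of 0.28 (aSMA line) and -0.01 (FAP line). Germinal centre genes (5 measured) and B cell precursor genes (4 measured) had medians of 0.15 and 0.04 in the aSMA line, also with 0 called.

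Factors that attract or keep B-lineage cells were measured for 8 genes, with 0 called within either line by limma. Cxcl13, the chemokine of B cell follicles, was 14.13, 15.44 and 8.16 in the arm labelled aSMA depleted and 7.81, 11.12 and 6.85 in their controls. It was also 14.39 in FAP-TK control 3, whose V segment means were low. Cxcl12, which holds plasma cells in their niche, was 4.95, 5.03 and 5.08 in the aSMA-TK controls against 6.15, 6.36 and 5.49 in the labelled arm, a difference of 0.98 ± 0.26 (SE) with a limma adjusted p of 0.944. Tnfsf13b, the survival factor BAFF, was 4.59, 4.64 and 4.68 against 5.63, 4.89 and 5.20. Il6, a plasma cell growth factor, was 9.40 in aSMA depleted 2 but 3.35 in aSMA depleted 1, against 3.79 to 4.04 in the aSMA-TK controls. Ltb was 6.83, 5.60 and 5.32 in the labelled arm against 5.82, 5.75 and 6.46. Ccl28 was 5.81, 5.93 and 5.78 against 5.80, 5.50 and 5.60, and in the FAP line 4.77, 5.06 and 5.25 after depletion against 5.52, 5.55 and 5.55. Lta and Ccl19 lay above the negative-control median on 0 arrays as deposited.

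Markers of other cells moved with the V segments in aSMA depleted 1. Of 7 T cell markers 6 were above all 3 controls there, against 34% of all genes, with Cd4 at 6.62 against 3.63 to 4.78 elsewhere and Cd3e at 5.75. As deposited, Cd4 lay above the negative-control median on 1 array and Cd3e on 2. The mean of the 7 T cell markers was 4.87 in that tumour, 4.25 in aSMA depleted 2, 3.90 in aSMA depleted 3 and 3.96 to 4.10 in the controls. Glycam1, made by the high endothelial venules of lymph nodes, was 8.48 in this tumour and 4.72 to 5.76 on the other arrays. Of the 6 markers of lymph node stroma and venules 5 were above all 3 controls in aSMA depleted 1, against 34% of all genes. The means of the 6 were 6.81, 6.51 and 5.61 in the labelled arm and 5.48 to 6.04 in the controls. Chst4, also on this list, went the other way, at 4.59, 5.66 and 7.39 in the labelled arm against 7.72, 7.89 and 8.35 in the controls. The mean of 6 acinar markers, genes of normal exocrine pancreas, was 6.49 in aSMA depleted 1, 12.27 and 14.03 in the other tumours of the arm, and 10.98 to 13.27 in the controls.

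In aSMA depleted 2 Glycam1 was 5.34, against 5.48 to 5.76 in the controls, and the acinar mean lay within the control range. The T cell mean there was above the control range, with 3 of 7 markers above all 3 controls, against 27.6% of all genes. Among them Cd3e was 4.94 against 3.90 to 3.96. The mean of lymph node stroma and venules was above its control range too, with 3 of 6 markers above all 3 controls. Cxcl13, at 15.44, was by far the highest of these 6, while Glycam1 and Chst4 lay below all 3 controls. Of 6 macrophage and myeloid markers 4 were above all 3 controls in aSMA depleted 1, against 34% of all genes. In aSMA depleted 2 it was 3, against 27.6%, and in aSMA depleted 3 also 3, against 26.3%. The mean of these 6 markers was 11.72, 11.67 and 10.91 in the labelled arm and 10.06 to 11.21 in the controls. The part of lymph node or other lymphoid tissue in the V segment levels of aSMA depleted 1 and 2 was not tested, nor was that of myeloid cells. In FAP depleted 1 the T cell mean was 3.89, against 3.83 to 4.07 in the FAP-TK controls, Glycam1 was 4.81 and the B cell marker mean was 3.90, against 3.82 to 4.00.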

How the data were processed

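The authors deposited 1 table of values for 72688 probe sets on 12 arrays, read here as log2 intensities from their range (1.64 to 19.93). That range exceeds a 16-bit scanner's, so differences were not converted to folds. How the authors corrected background or normalized these log2 values is not stated in the material used. The submitters' processing notes name limma, and the labels' protocols an Illumina labelling kit, although the probe sets are Affymetrix transcript clusters.

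Of these, 6732 control probe sets were left out and 65956 quantile normalized, since array medians differed (3.89 to 4.65). Probe sets with 1 listed symbol gave 30142 genes (the highest mean where a gene had several), and 827 symbols were updated through RefSeq (GRCm38.p6). One model with 4 group means over 12 arrays was fitted with limma 3.58.1 (R 4.3.3), with Benjamini-Hochberg adjustment over all genes, called under 0.05. The method was tested on simulated data. Each animal is 1 array, and the number of arrays limits precision.

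Segments were named by mean, SD and, per comparison, size among called or smallest p without overlap; companion genes came from fixed lists. The members and lists were chosen with earlier results of these data known. Alternatives covered scaling, dim genes, variance model, array quality, threshold, test and single arrays.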

Additional observations from a re-analysis of the deposited data

Results flagged for a closer look

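Probe sets that list several immunoglobulin symbols entered no comparison. Only the 3 that list 8 or more symbols, all of them immunoglobulin, were looked at. Each stood above all control tumours in aSMA depleted 1 and 2. The kappa locus probe set of 14 symbols was 6.72 in aSMA depleted 1 and 5.88 in aSMA depleted 2, and at most 4.87 in the control tumours of both lines. It was 5.80 in FAP depleted 1. The heavy locus probe set of 8 symbols was 8.85 in aSMA depleted 1 and at most 4.49 in the controls. The lambda locus probe set of 9 symbols was 7.91 in aSMA depleted 1 and 8.24 in aSMA depleted 2, and at most 5.08 in the controls. It is the only measure of the lambda locus given here, and it was slightly higher in the second tumour than in the first, unlike the heavy and kappa means. No single gene can be named from these probe sets.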

How the results depend on the processing

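Each of 22 alternatives was run where it could be fitted. Within the lines and for the interaction, the counts of called segments stayed at 0 with all arrays kept, and the medians kept their direction in the aSMA line. Leaving out single arrays gave 0 to 4 heavy and 0 to 8 kappa calls for aSMA depletion, with 0% to 0.0531% of all genes called. Between controls (3 heavy and 5 kappa calls), the counts were 9 and 10 at an adjusted p under 0.1, 6 and 14 as deposited, 5 and 9 with median centring, 1 and 3 with an offset of 50, and 13 and 12 with array weights. All genes called were 7.8%, 41.3% as deposited, 19.1% with centring, 5.1% with the offset and 22.1% with array weights. At an adjusted p under 0.1 they were 5104 of 30142. The counts were 0 and 1 with control-probe separation as a covariate, and 0 and 0 by the unmoderated test, with 3.36% and 0.209% of all genes called. Only the groups compared gave 1 kappa call, with 0.703% of all genes called. Single arrays left out gave 0 to 11 heavy and 0 to 7 kappa calls, with 1.69% to 10.4% of all genes called. The control medians turned to -0.066 (heavy) and -0.20 (kappa) as deposited and were 0.092 and 0.054 with the offset of 50. Ighv2-6-8 turned to -0.067 as deposited. Between depleted tumours (15 and 11 calls), the counts were 30 and 26 at an adjusted p under 0.1, 4 and 4 with the offset, 0 and 0 with only the groups compared, 29 and 21 with array weights, 8 and 3 with the covariate, and 0 and 0 by the unmoderated test. All genes called were 5.18%, 3.79% with the offset, 14.9% with array weights and 3.87% with the covariate. They were 0.00332% with only the groups compared, 0% by the unmoderated test and 3501 of 30142 at an adjusted p under 0.1. As deposited, with 47.4% of all genes called, 18 kappa segments were called. Single arrays left out gave 1 to 38 heavy and 0 to 32 kappa calls, with 1.24% to 6.22% of all genes called. The filter on dim genes left 3 heavy and 0 kappa segments. There were 0 heavy calls between controls and 0 between depleted tumours, against 0% and 0.398% of the genes left. The cause of these shifts was not tested, apart from the fewer genes and arrays that some settings hold. The 14 named results that were not called kept their direction and side of the threshold in 297 of 308 comparisons with an alternative. The 10 that were called kept both in 132 of 220, from 6 of 22 for Ighv1-69 between depleted tumours to 17 of 22 for Igkv5-37 between controls. Low signal over background limits single segments, since 178 of 199 never passed the 95th percentile of the negative controls.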
